A study of Drosophila melanogaster with 2 samples.

Results

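The genes described here encode Polycomb group proteins, trithorax group proteins and chromatin remodellers of the fruit fly Drosophila melanogaster, and the measurement is where the transcription factor Bteb2 was found on DNA at and within them. The 43 genes were taken by symbol from a list drawn up with earlier results of these data known, so their counts are a description. All 43 were matched in the annotation, among 13968 protein-coding genes. The data are chromatin immunoprecipitation and sequencing (ChIP-seq), in which an antibody to green fluorescent protein (GFP) pulled down the tagged factor. The chromatin came from whole embryos of both sexes, 4 to 20 h old, of a transgenic line that stably expresses Bteb2 with GFP at its C-terminus from an insertion targeting Klf15, the gene of Bteb2. There was 1 group of 2 libraries, replicates 1 and 3, which the labels call biological replicates without saying whether the embryos were collected apart, and chromatin was sheared by sonication to 200 to 800 bp. Both libraries carry the same transgene, so no condition is compared with another, and no control sample was analysed here.

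Polycomb proteins keep genes silent through development and trithorax proteins keep them active, and both act on nucleosomes. Polycomb repressive complex 1 (PRC1) compacts chromatin and ubiquitylates histone H2A, and Polycomb repressive complex 2 (PRC2) methylates histone H3, while the Pho repressive complex (PhoRC) brings them to DNA and the deubiquitinase PR-DUB removes ubiquitin from H2A. On the trithorax side stand histone methyltransferases and the Brahma remodelling complexes BAP and PBAP, which move or evict nucleosomes with energy from ATP. Most of these genes are used widely in the embryo, and their mutants are known for homeotic transformations of body segments. Bteb2 is a zinc finger protein of the KLF family, whose members recognise GC-rich boxes.

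Windows under 7 summits are shown first, chosen for their rank or for the words they hold. Each is written 5′ to 3′ on the strand of the gene it is named for, on the dm6 build, and all 7 genes lie on the minus strand. The window reaches 100 bp to each side of the summit except at fs(1)h, where 102 bp were left after removal of transcript leader sequence. Capitals mark matches, on either strand, to the DRE (TATCGATA), motif 1 (GGTCACACT), the GAGA factor word GAGAG and the Pho core GCCAT. They also mark the E-box CAGCTG, the TATA box searched as TATAAA, the word ACACTG and, differing from it by a single base, the word ACAGTG. The strongest promoter peak of the list, in an intron of ph-p, lies at chrX:2137226-2137426 and holds none of these words. The windows upstream of brm (chr3L:15982876-15983076), Sfmbt (chr2L:13176819-13177019), mor (chr3R:15972918-15973118) and fs(1)h (chrX:8061543-8061644) are shown for their matches, and those in introns of osa (chr3R:17704317-17704517) and trx (chr3R:14283799-14283999), chosen after their values were seen, for their rank.
ph-p: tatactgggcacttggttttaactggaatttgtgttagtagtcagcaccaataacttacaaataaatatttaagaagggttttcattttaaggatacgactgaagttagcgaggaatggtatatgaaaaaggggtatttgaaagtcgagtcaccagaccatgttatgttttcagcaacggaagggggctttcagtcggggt
brm: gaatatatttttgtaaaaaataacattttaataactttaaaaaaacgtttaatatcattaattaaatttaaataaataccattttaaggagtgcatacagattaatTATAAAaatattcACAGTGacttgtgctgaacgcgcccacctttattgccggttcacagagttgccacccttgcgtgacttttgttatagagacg
Sfmbt: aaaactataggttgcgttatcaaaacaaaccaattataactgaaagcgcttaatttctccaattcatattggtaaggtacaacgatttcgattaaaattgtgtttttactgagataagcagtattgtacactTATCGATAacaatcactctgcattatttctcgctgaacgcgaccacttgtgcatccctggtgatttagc
mor: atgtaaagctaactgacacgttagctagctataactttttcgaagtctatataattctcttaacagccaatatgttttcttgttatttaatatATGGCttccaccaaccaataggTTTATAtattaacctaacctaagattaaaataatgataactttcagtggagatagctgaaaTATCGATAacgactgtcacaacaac
fs(1)h: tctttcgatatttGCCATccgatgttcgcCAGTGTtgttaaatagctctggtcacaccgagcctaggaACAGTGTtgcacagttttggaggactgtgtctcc
osa: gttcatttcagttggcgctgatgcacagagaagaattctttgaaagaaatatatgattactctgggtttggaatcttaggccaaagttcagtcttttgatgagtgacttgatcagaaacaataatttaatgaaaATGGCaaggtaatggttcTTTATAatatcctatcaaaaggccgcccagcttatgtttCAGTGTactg
trx: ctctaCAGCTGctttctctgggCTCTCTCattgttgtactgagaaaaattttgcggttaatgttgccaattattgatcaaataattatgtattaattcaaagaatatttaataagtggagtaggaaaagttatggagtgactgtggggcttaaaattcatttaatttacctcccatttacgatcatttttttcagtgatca
The windows of Sfmbt and mor each hold a DRE, the element bound by the promoter factor DREF, and that of fs(1)h holds the Pho core once and the word ACACTG or its complement 2 times on this stretch. Those of ph-p and trx have no DRE, no motif 1 and no Pho core.

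The authors deposited an optimal set of 3350 peaks, named for a threshold on reproducibility. They also deposited longer relaxed lists of 30000 peaks for the pooled libraries and for each replicate. A gene was counted as having a promoter peak when the summit of an optimal peak lay within 1000 bp of one of its transcription start sites (TSSs). Peaks are ordered by the authors' signal value, rank 1 being the strongest, and the optimal set is the top 3350 of the pooled list. Signal is on a scale of its own in each list and ranks peaks within that list only. The depth of the libraries is unknown, and the relaxed lists may reach into background. In chromatin of whole embryos, a factor present in few cells and one weakly bound in many cells cannot be told apart.

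A promoter peak was found at 18 of the 43 genes, or 41.9% (exact Clopper-Pearson 95% interval 27.0 to 57.9%), against 20.4% of all protein-coding genes. The difference was seen among the weaker optimal peaks. Only 5 of the 43 genes (ph-p, brm, Su(z)12, Sfmbt and caly) had a promoter summit among the top 1675 peaks, the stronger part of the optimal set. That is 11.6% (exact 95% interval 3.89 to 25.1%) against a background of 11.5%. With so wide an interval, whether the stronger peaks differ from the background could not be told. The other 13 genes, 30.2%, had promoter summits ranked below 1675 alone, against 8.91% of protein-coding genes. The median rank of the strongest promoter peak was 2017 over the 18 genes and 1485 over all protein-coding genes with one. Within the optimal set, promoter peaks were thus found at these genes at more than the background share, and mostly at middling rank. Further down the pooled order the share of listed genes rose to 33 of 43, or 76.7%, at the strongest 10000 peaks, against 42.1%. Over the whole pooled list it was 39 of 43, or 90.7%, against 62.4%. The median rank of the strongest promoter summit in that list was 3539 over the listed genes with one, and 5960 over all protein-coding genes with one. That order is the reverse of the order within the optimal set.

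**Figure D1:**
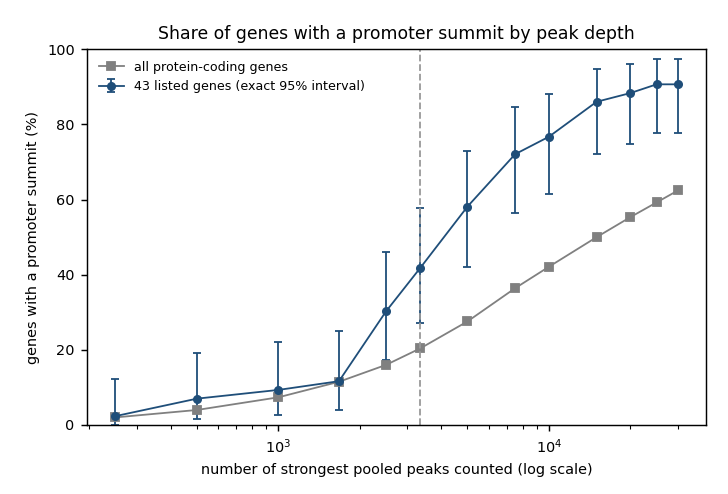
Share of genes with a promoter summit (vertical axis, percent) among the strongest pooled peaks, from the top 250 to all 30000 (horizontal axis, log scale), for the 43 listed genes with exact 95% intervals and for all protein-coding genes. The shares are 11.6% and 11.5% at 1675 peaks, and from 2500 peaks on (30.2% and 16.0%) the interval of the listed genes lies above the background; the dashed line marks the 3350 optimal peaks.

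Gene structure moved with these counts. Another gene's TSS lay within 1000 bp of a TSS at 30 of the 43 genes, 69.8%, and at 48.2% of protein-coding genes. Among genes with such a neighbour, 14 of the 30 listed genes had a promoter peak (46.7%, background 30.8%), and among those without, 4 of 13 (30.8%, background 10.7%). The listed share was above the background in both classes, on 30 and 13 genes, and these differences were not tested. Of the 28 genes with 1 TSS, 9 had a promoter peak (32.1%, background 15.7%), and of the 15 with more than 1, also 9 (60%, background 33.5%). At 14 of the 18 genes (77.8%) the strongest promoter peak lay within 1000 bp of another gene's TSS too, against 67.7% of all protein-coding genes with a promoter peak. When each peak was given only to the gene with the nearest TSS, 12 of 43 genes remained (27.9%, background 14.2%), without Acf, Bap60, Chd1, Mi-2, Set2 and caly. For these 6 genes, and for the stronger summit of fs(1)h, the peak lay nearer to the start of a neighbour. Whether it belongs to one gene or the other was not tested.

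By role, the counts stand beside the same background of 20.4%. Of the 7 genes grouped as other remodellers and BET proteins, 6 had a promoter peak, all but Iswi. PRC2 followed with 4 of 7 genes, while BAP and PBAP had 3 of 10, PRC1 2 of 7, and the enzymes that add or remove histone methyl groups 1 of 7. PhoRC had 1 of 3 and PR-DUB 1 of 2. When each peak went only to the gene with the nearest TSS, the other remodellers and BET proteins lost Acf, Chd1 and Mi-2. Of that role, fs(1)h then stayed only by its weaker summit, 761 bp from a TSS, since the stronger lay 2 bp from that of mys. The same rule removed Bap60, Set2 and caly from other roles. With so few genes in each role, counts such as 3 of 10, 2 of 7 and 1 of 7 lie near the background, and the differences between roles were not tested.

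**Figure D2:**
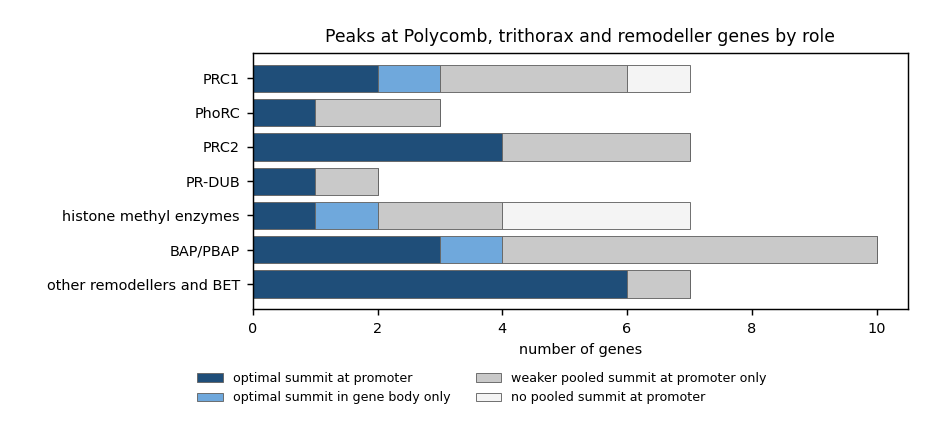
Number of genes (horizontal axis) by role, divided into genes with an optimal summit at a promoter, in the gene body only, with a weaker pooled summit at the promoter only, and with no pooled summit at the promoter. The other remodellers and BET proteins have optimal promoter summits at 6 of 7 genes and the histone methyl enzymes at 1 of 7.

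In PRC1, ph-p held by far the strongest peaks. It and its neighbour ph-d are a tandem pair that encode the polyhomeotic subunits, which form polymers through their SAM domains. The strongest ph-p peak (X, 2137199 to 2137519, intronic) ranked 22 in the pooled list with a signal of 679, and ranked 20 in replicate 1 and 18 in replicate 3. The next (X, 2137722 to 2138084, in the 5′ UTR, 407 bp downstream of the first TSS) ranked 94, and 114 and 47 in the replicates. Both stand far above the other genes of the complex in both libraries, and both lie between the TSSs of ph-p, of which there are 3. Further intronic peaks ranked 684 and 2157. At ph-d there was 1 optimal summit, 755 bp upstream of a TSS, at rank 2715, and it was uneven between libraries, at rank 1621 in replicate 3 and 5071 in replicate 1. Near-identical copies can draw reads from each other. All 31-base words were unique on the chromosome arms in 34 of the 35 optimal peaks at or in the listed genes, and unplaced sequence was not searched. The exception was the rank 22 peak of ph-p, with 97.6% of its words unique.

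The remaining PRC1 genes had no promoter peak in the optimal set. Psc, a RING finger subunit, had its optimal peak in an intron, 5064 bp from the nearest of its TSSs, at rank 1323 (1291 in replicate 1 and 1472 in replicate 3). The strongest promoter summit of Psc ranked 3933 in the pooled list. That of Pc, whose chromodomain reads the mark made by PRC2, ranked 4280, that of Scm 4571 and that of Su(z)2, the relative of Psc, 6846. Pc and Psc fell on either side of the limit by library, at ranks 2908 and 2106 in replicate 3 but 6736 and 6076 in replicate 1. Sce, the ubiquitin ligase, had no promoter summit in the pooled list and weak ones in the replicates, at ranks 7685 and 8224.

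In PhoRC the peak was at Sfmbt, which binds methylated histones and partners the DNA-binding protein Pho. Its stronger summit lay 134 bp upstream of the TSS at rank 828 (998 in replicate 1, 560 in replicate 3), in the window with a DRE printed above. A second summit at rank 2297 lay 341 bp upstream and 24 bp from the TSS of the divergent gene CG5439, and the same replicate 3 peak overlapped both. The genes of the DNA-binding subunits had only weaker summits, phol at rank 3539 and pho at 5789.

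PRC2 had promoter peaks at its core genes. Su(z)12, a zinc finger subunit, had the strongest, 57 bp downstream of its TSS in the 5′ UTR (3L, 19923197 to 19923612), at rank 456. It was even between libraries, at ranks 486 and 444, and a second summit 143 bp upstream ranked 3027. E(z), the methyltransferase itself, had a summit 33 bp downstream of a TSS at rank 2003, with ranks 3390 in replicate 1 and 1396 in replicate 3. At esc, the WD40 subunit that reads the mark, the summit lay 30 bp upstream at rank 2487 (2515 and 2806). At Caf1-55, a histone chaperone shared with other complexes, it lay 24 bp upstream at rank 3064 (2574 and 5434). All 4 core subunits thus carried an optimal summit within 57 bp of a TSS, of which Su(z)12, E(z) and Caf1-55 share theirs with a divergently transcribed neighbour (Pfdn6, Cnep1r2 and CG31344). The accessory genes Jarid2 and Pcl and the esc relative escl had weaker summits, at ranks 3434, 10571 and 21048. In PR-DUB, caly, the catalytic subunit also called calypso, had a summit at rank 1147 (1607 and 770). That summit was 530 bp upstream of caly and 179 bp from the TSSs of CG42837 and Lipt1, with CG44242 also in range. Asx, its partner, had a promoter summit at rank 5828.

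Of the 7 histone methyl enzymes, 1 had a promoter peak. Set2, which methylates H3 along transcribed genes, had it 115 bp upstream at rank 3162 and 53 bp from the TSS of CG1998. It ranked 3844 and 4107 in the replicates, so it was within the top 3350 in neither of them alone. The promoter of trx, which gave the trithorax group its name, had a summit at rank 6202 only, and the optimal peaks around it stood 3004 bp downstream in an intron and 1.92 kb upstream. trr ranked 4806 and the demethylase gene Utx 9400. The pooled list held no promoter summit for ash1, ash2 or Set1. In the replicates ash2 ranked 4201 and 5332, ash1 appeared in replicate 3 alone at rank 11768, and Set1 had none. The second strongest peak of the whole optimal set lay 157 bp beyond the 3′ end of ash1 and 92 bp from the TSS of CG14100, so that a strong peak stood beside the gene but not at its start.

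Among BAP and PBAP genes the ATPase gene brm had the strongest promoter peak. It lay 107 bp upstream (3L, 15982885 to 15983130) at rank 395, with ranks 735 and 215 in the replicates, and 159 bp from the divergent gene Arl1. Bap60 followed at rank 1741 (2099 and 1497), 153 bp upstream and 57 bp from CG12096. mor, the scaffold of the complex, had its summit 105 bp upstream at rank 1941 (1877 and 2522), with Hel89B on the other side. These 3 encode subunits common to both complexes. The other 7 genes had no optimal promoter summit, and they include further common subunits, Snr1, Bap55 and Bap111. Their strongest pooled promoter summits ranked between 4892 for osa, the BAP-specific DNA-binding subunit, and 17369 for Snr1. The PBAP-specific genes Bap170, polybromo and e(y)3 ranked 5623, 10988 and 12712, and Bap55 and Bap111 ranked 5197 and 12689.

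Of the other remodellers and BET proteins, 6 had promoter peaks in a narrow band of pooled ranks, which was wider in each replicate. Acf, the partner of the Iswi ATPase, ranked 1970 (1737 and 3859), 134 bp upstream and 60 bp from Mccc1. fs(1)h, the BET protein that reads acetylated histones, ranked 2031, 207 bp upstream and 2 bp from the annotated TSS of mys, and had a further summit at rank 2177. Chd1 ranked 2257 (3143 and 1363), with Bem46 on its other side. The strongest promoter summits of the 6 genes lay between pooled ranks 1970 and 2555, none in the top 1675. Their ranks ran from 1680 to 3506 in replicate 1 and from 1363 to 3859 in replicate 3. Mi-2, the ATPase of the NuRD complex, had summits at ranks 2370 and 2433, the first 1 bp from the TSS of Prp3 and the second 7 bp from that of Su(Tpl). kis, a CHD family remodeller, ranked 2509 (3506 and 2033), 115 bp upstream. dom, which exchanges the histone variant H2A.V, ranked 2555 (2143 and 3366), 276 bp downstream of its TSS. Iswi itself ranked 8341, with 13182 in replicate 1 and 3135 in replicate 3, the widest spread of the role.

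**Figure D3:**
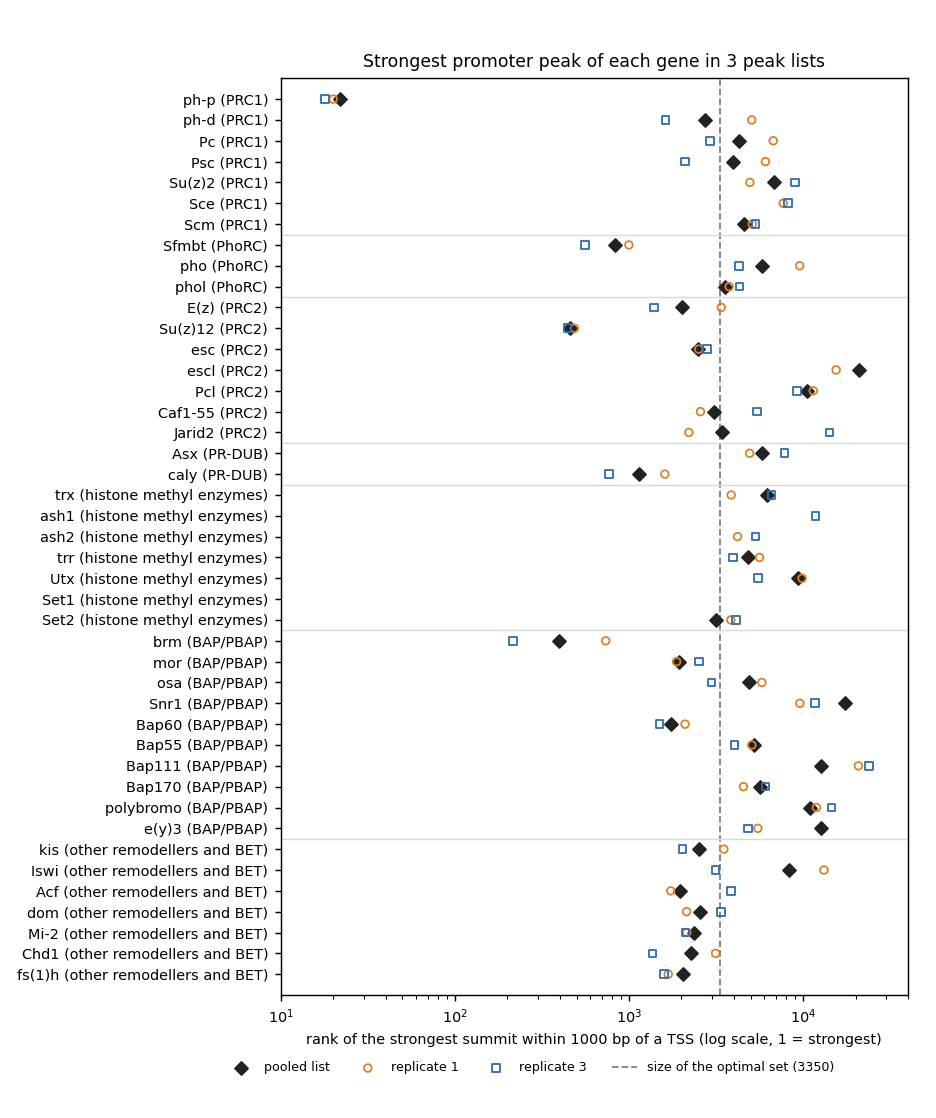
Rank of the strongest summit within 1000 bp of a TSS (horizontal axis, log scale) for each listed gene in the pooled list, replicate 1 and replicate 3; a gene with no mark has no such summit in that list. ph-p stands alone at ranks 22, 20 and 18, and most genes lie close to the dashed line at 3350, where the optimal set ends.

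Many genes thus lay close to the limit of the optimal set. Just inside it were Caf1-55 at rank 3064 and Set2 at 3162, and just outside Jarid2 at 3434, phol at 3539 and Psc at 3933. At the limit of distance, ph-d and fs(1)h had summits 755 and 761 bp from a TSS, and osa and ph-p had summits at 1131 and 1240 bp that were counted in the gene body alone. With the replicates taken one by one, 11 of the 43 genes had a promoter summit in the top 3350 of both (25.6%, background 15.8%). All 11 were among the 18, and of the others 6 had one in 1 replicate and Set2 in neither. Conversely, 5 genes without an optimal promoter peak had one in the top 3350 of a single replicate, Jarid2 in replicate 1 and Pc, Psc, osa and Iswi in replicate 3.

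**Figure D4:**
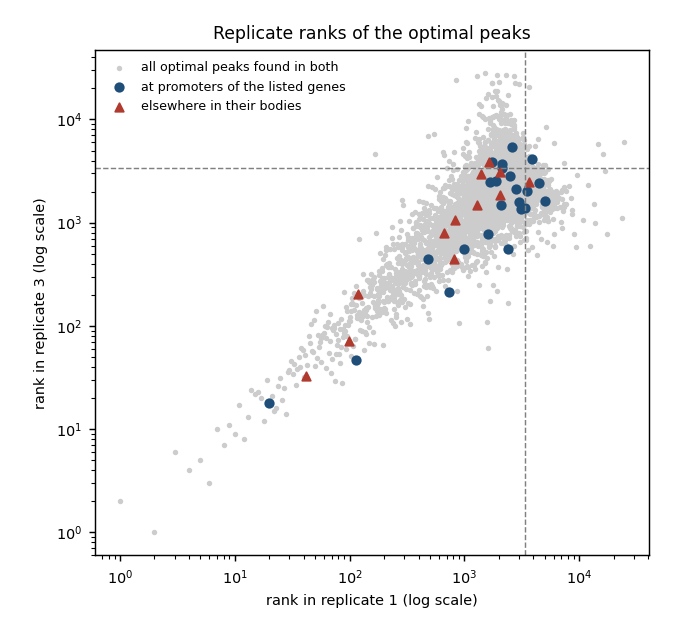
Rank in replicate 1 against rank in replicate 3 (both log scale) of the optimal peaks, with those at promoters of the listed genes as circles and those elsewhere in their bodies as triangles, over all optimal peaks found in both lists in grey. All 35 peaks of the listed genes were found in both replicates, and 24 lie in the top 3350 of both, left of and below the dashed lines. Found means overlapped by any peak of the relaxed list, and 1 replicate 3 peak served both summits of Sfmbt. The same shares over all optimal peaks are not given here, so these counts are not set against a background.

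Where a gene had a promoter peak, its position was like that of other genes. The strongest summit lay upstream of the TSS at 15 of the 18 genes (83.3%) and at 84.7% of protein-coding genes with a promoter peak, downstream only at E(z), Su(z)12 and dom. It was within 250 bp at 14 genes (77.8%, against 69.2% of those genes). The median position was 115 bp upstream, against 128 bp. More than 1 promoter summit was found at 5 genes (ph-p, Sfmbt, Su(z)12, Mi-2 and fs(1)h), which is 11.6% against a background of 2.48%. Among genes with a promoter peak it was 5 of 18, against 347 of 2848 protein-coding genes. The peaks of Sfmbt overlap each other, as do those of Su(z)12. Counted separately, there were 23 promoter peaks in all.

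Several of these genes also held strong peaks in introns. An optimal summit lay between the first and last base of 10 of the 43 genes, or 23.3% (exact 95% interval 11.8 to 38.6%), against 9.61%. Counted over 1000 bp away from each of the gene's own TSSs, it was 6 genes (14.0%, background 4.54%): ph-p, Psc, trx, osa, kis and Mi-2. In osa a peak at rank 37 (3R, 17704251 to 17704557) had a signal of 540 and ranked 42 in replicate 1 and 33 in replicate 3. In trx a peak at rank 89 (3R, 14283747 to 14284026) had a signal of 393 and ranks of 99 and 72. In Mi-2 a peak at rank 141 (3L, 19903153 to 19903389) had a signal of 322 and ranks of 118 and 205. The Mi-2 peak also lies within Su(Tpl), a protein-coding gene inside Mi-2 on the same strand, so it cannot be given to either gene alone. All 3 were intronic, 3004 bp or more from the gene's own TSSs, and far stronger in both libraries than any peak at that gene's promoter.

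Further intronic peaks were found in osa at ranks 712 and 1705 and in kis at ranks 816 and 2694. Some lay within 1000 bp of the TSS of a noncoding gene inside the host. The rank 37 peak of osa was 722 bp from the TSS of lncRNA:CR46035, the rank 712 peak 140 bp from lncRNA:CR46036, and the rank 816 peak of kis 71 bp from lncRNA:CR44222. The nearest other TSS to the trx peak was 4330 bp away, and to the rank 141 peak of Mi-2 6102 bp. The further body peaks of Mi-2 at ranks 1795 and 2614 were within Su(Tpl) as well, and the first lay 923 bp from the TSS of lncRNA:CR32218. Of 12 body summits that were not promoter summits of their gene, all 12 were intronic, against 95.4% of the 1008 such summits of all protein-coding genes, and 8 (66.7%) lay over 1000 bp from any TSS, against 84.1%. The intronic placement of these summits was therefore close to the background. At least 3 body summits were found in ph-p, osa and Mi-2, which is 6.98% of the 43 genes against a background of 1.03%. With both places counted, 21 of 43 genes (48.8%) had an optimal summit at a promoter or in the body, against 23.0%, and 22 had neither. In the pooled relaxed list 31 genes (72.1%) had a body summit, against 43.3%.

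Gene length moved with the body counts. The listed genes had a median length of 7137 bp, against 2164.5 bp for protein-coding genes. All 5 listed genes of 20000 bp or longer (kis, osa, Mi-2, fs(1)h and trx) had an optimal body summit, against 38.8% of protein-coding genes of that length. Of the 38 shorter genes 5 did (ph-p, Psc, E(z), Su(z)12 and dom), or 13.2%, against 7.31%. How far length accounts for the counts was not tested beyond this division.

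**Figure D5:**
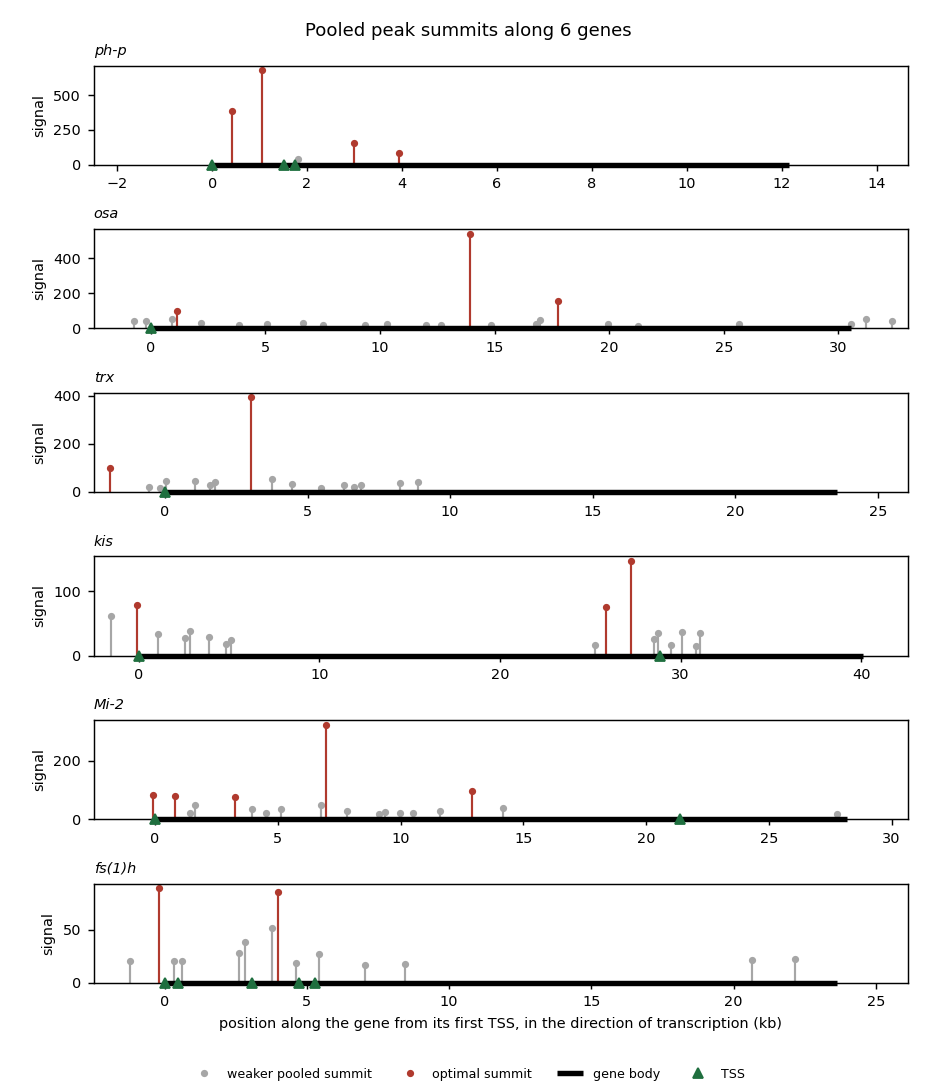
Signal of the pooled summits (vertical axis, the authors' units, a scale for each panel) along 6 genes, by distance from the first TSS in kb (horizontal axis), with optimal summits in red, weaker pooled summits in grey, TSSs as triangles and the gene as a black bar. In osa, trx and Mi-2 the tallest summits (540, 393 and 322) stand within introns away from the TSSs, while in ph-p they (679 and 386) stand among the TSSs.

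The words under the promoter summits were mostly those of other promoters in this set. At 100 bp to each side only ACACTG had an interval above the background, but which words did so depended on the window. In windows of 100 bp to each side of the 23 promoter summits, ACACTG was found in 10 (43.5%, exact 95% interval 23.2 to 65.5%), against 20.1% of the 2294 windows of optimal promoter peaks. These 10 windows were at ph-d, Sfmbt, Su(z)12, esc, Caf1-55, Set2, dom, fs(1)h and, at both its promoter summits, Mi-2. The Pho core GCCAT, the heart of the site of the PhoRC subunit Pho, was found in 10 windows (43.5%, interval 23.2 to 65.5%, against 27.0%). ACAGTG was found in 7 windows (30.4%, interval 13.2 to 52.9%, against 17.3%). In these windows the intervals of the Pho core and ACAGTG include the background share. At 50 bp to each side that of the Pho core lay above it (39.1%, interval 19.7 to 61.5%, against 16.3%). At 200 bp that of ACAGTG lay above it (52.2%, interval 30.6 to 73.2%, against 28.9%). ACACTG had the same share and interval at 200 bp, which include its background of 32.2%. A longer run ACAGTGT holds ACAGTG and the complement of ACACTG, as at fs(1)h, so the counts of these words overlap. The DRE was found in 2 windows, at Sfmbt and mor (8.70%, against 7.15%), and its inner word ATCGAT in 5 (21.7%, against 17.7%).

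Motif 1, a core promoter word of housekeeping genes, was found in the windows of Set2 and Mi-2 (8.70%, against 2.96%). GAGAG was found in 5 windows (21.7%, against 20.4%) and TATAAA in 8 (34.8%, against 34.1%). The E-box was found in 1 window (4.35%, against 12.1%) and the CTCF word AGGTGGCGC in none (0.567% of all such windows). None of the 23 windows held a KLF or SP box, searched on both strands as GGGTGTG and, besides this word, as GGGTGGG and, with a cytosine in the middle, as GGGCGTG and also in its form GGGCGGG. A count of 0 in 23 has an exact upper limit of 14.8%, and the share of all optimal promoter windows was 3.79%, so a difference was not detectable at this number of windows. GC content was 37.2% ± 6.64 (SD, n = 23 windows), against 36.5% ± 6.85 (SD, n = 2294), and ran from 23.9% at Chd1 to 51.2% at Set2.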

How the data were processed

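Peak lists on the dm6 build were used, made by the authors from 2 anti-GFP libraries: a set called optimal (named for a threshold on the irreproducible discovery rate), a relaxed list for the pooled libraries and 1 for each replicate, per the notes beside the files. They are headerless narrowPeak tables. Signal is the authors' deposited value for each peak on an unstated scale, from 65.9 to 1370 in the optimal set, and served to rank peaks inside 1 list. The −log10 q-value in the deposited lists reaches a ceiling at the top and was not used to rank peaks. Per the labels, a control is named as a possible one. For the aligner, the peak caller and their thresholds, the sources used here give nothing, and peak lists on dm3 were not used. The age was read from the source name, since the age tag is corrupted.

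Summits were assigned to every gene with a TSS within 1000 bp and to every gene body that holds them, with Ensembl release 115 on the Release 6 genome (18277 genes, 23694 TSS positions). Of the symbols, 1 was brought up to date (calypso to caly) through synonyms in RefSeq's gene table. A peak was matched to the replicate peak that overlaps it, and words were searched on both strands. Assignment was checked with 200 summits placed at known genes, of which 200 were found by each rule. Where a share is given with an interval, it is the exact Clopper-Pearson 95% interval, which covers counting error only. Most shares are given without one, and no test was made over genes. All 43 genes are accounted for, those with an optimal summit with their strongest peak. Other genes are named for many summits where a TSS lies within 1000 bp or nearest, but not for all. The members, the role lists and the words searched were chosen with earlier results of these data known, so their counts are a description. Sequences were read from the Release 6 genome, leaving out chromosome arms and transcript leaders not printed here. Alternatives changed the distance, the depth of the list, the rule of assignment, the replicate and the window. The analysis ran in Python (3.11.15) with pandas 2.3.3 for tables, SciPy 1.17.1 for intervals, NumPy 2.4.6 for arrays and matplotlib 3.10.9 for plots.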

Additional observations from a re-analysis of the deposited data

How the results depend on the processing

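The count of 18 genes with a promoter peak became 5 among the top 1675 peaks (11.6%, background 11.5%) and 33 at the strongest 10000 pooled peaks (76.7%, background 42.1%). The count of 10 genes with a body summit became 6 over 1000 bp from their own TSSs (background 4.54%). Within the other alternatives both counts stayed within 1.5 times of these values: 14 genes at 250 bp (background 14.8%), 16 at 500 bp (17.9%), 21 at 2000 bp (24.8%) and 12 with the nearest TSS only (14.2%). Left out one at a time, the replicates gave 15 to 18 genes at promoters, with backgrounds of 20.2% and 20.3%, and 9 to 10 in bodies, with 9.41% and 9.92%. The genes changed more than the counts. Without replicate 1, Acf, Caf1-55, Set2 and dom were lost and Iswi, Pc, Psc and osa gained; without replicate 3, E(z), Set2, kis and ph-d were lost and Jarid2 gained. The Pho core was in 16 windows at 200 bp to each side (69.6%, against 49.0% of all such windows) and in 9 at 50 bp (39.1%, against 16.3%). ACACTG was in 7 windows at 50 bp (30.4%, against 11.1%) and in 12 at 200 bp (52.2%, against 32.2%). ACAGTG was in 3 at 50 bp (13.0%, against 8.33%) and in 12 at 200 bp (52.2%, against 28.9%). At 50 bp to each side GAGAG was in 1 window (4.35%, against 8.50%) and ATCGAT in 2 (8.70%, against 9.72%), and at 200 bp GAGAG was in 5 (21.7%, against 41.1%). The depth of the libraries is unknown, and signal cannot be compared between lists. No paired analysis was possible because there is 1 group.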
